A study of Homo sapiens with 12 samples.

Results

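The comparison reported here follows H1 cells with OCT4 knocked down from day 2 to day 3 after transfection. It takes the 3 arrays of OCT4 shRNA at day 3 and the 3 arrays of OCT4 shRNA at day 2, chosen by their column labels, 6 of the 12 arrays of the series. H1 is an established human embryonic stem cell line, and the series measured mRNA on Illumina bead arrays after a short hairpin RNA (shRNA) against OCT4, the product of the POU5F1 gene, or against luciferase, a firefly gene that human cells lack, as the negative control. Cells were transfected with Fugene, a lipid reagent, 1 day after seeding and harvested after 2 or 3 days, which gives 4 groups of 3 arrays: knockdown at day 2, knockdown at day 3, control at day 2 and control at day 3. All groups share the cell line, the reagent and the seeding schedule, and the labels name 1 OCT4 shRNA and no selection of transfected cells. Separate cultures are not stated for the replicates. The spread behind each p-value is therefore that of these arrays and may be technical. The 6 control arrays show what a day in culture did without the OCT4 shRNA.

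OCT4 is a POU-family transcription factor that, with SOX2 and NANOG, maintains the pluripotent state of human embryonic stem cells. Cells that leave this state towards mesoderm and endoderm pass through a stage resembling the primitive streak, with EOMES, MIXL1 and GSC among its regulators, and later express SOX17 and FOXA2 in definitive endoderm or HAND1 and MESP1 in mesoderm. Nodal, WNT, BMP and FGF signals guide these choices, and human embryonic stem cells can also produce trophoblast-like and amnion-like cells.

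Between 13343 and 14969 probes were detected per array (detection p under 0.01), and the number of arrays limits the precision. Levels are normalised log2 intensities, and the lowest detected level lay between 5.69 and 6.16 on the 12 arrays, so values near or under this range are background. A principal component analysis of the 6 knockdown arrays separated the days on the component holding 42.1% of the variance. The next component, with 36.0%, set replicate 3 of both days (23.7 and 23.1) apart from the other 4 arrays (-21.5 to 1.07), and counts without the replicate 3 arrays are given below. NANOG and SOX2, which define the labelled cell type, were detected on all 6 control arrays. Replicate 1 of control day 3 stood high for early lineage genes: it was the highest of the 6 control arrays for 18 of 46 measured streak and endoderm genes (39.1%), against 15.1% of all genes. Values without this array are given beside some of the calls that change without it, and not beside all of them.

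POU5F1, the targeted gene, was already low at day 2. Its level on the day 2 knockdown arrays was 10.73, 11.01 and 10.34 for replicates 1, 2 and 3, and on the day 3 knockdown arrays 9.95, 10.52 and 10.29. The 6 control arrays held 12.69 to 13.29, above every knockdown array. The knockdown days overlapped, and the change of -0.44 ± 0.19 (SE) on the log2 scale did not pass the test (limma, Benjamini-Hochberg adjusted p = 0.231). POU5F1 and NANOG have near-identical pseudogenes, and whether the probes tell them apart was not tested.

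Across the array, 607 of 10506 genes (5.78%) changed between the days of knockdown at an adjusted p under 0.05. Of these, 411 were higher at day 3 (3.91%) and 196 lower (1.87%). Among the 212 that changed at least 2-fold, 193 rose and 19 fell, and the median change of all genes was -0.04. All 607 moved the same way in 3 of 3 pairs of equal replicate number. For all but 1 of them this follows from the arrays of the 2 days not overlapping, so it is no separate support. Arrays of the 2 days did not overlap in 22.6% of genes in knockdown and in 16% in control. In the control arrays 26 genes changed over the same day (0.247%, 1145 at an unadjusted p under 0.05), 12 higher (0.114%) and 14 lower (0.133%), of which 6 were also called in knockdown with the same sign. The balance depended on the values used: on the authors' deposited log2 values 475 genes were higher and 110 lower, so that 81.2% of calls were rises in place of 67.7%. Without background correction the share of rises was 68.8%, and with median scaling it was 71.8%. With the replicate number as a block the count was 1611 (837 higher, 774 lower), and with the 6 knockdown arrays alone it was 357. Without replicate 1 of knockdown day 2 it was 370, without replicate 1 of knockdown day 3 it was 385, without replicate 2 of knockdown day 3 it was 366, and without the replicate 3 arrays of all groups it was 494. A total of 269 genes, 229 higher and 40 lower, were called with the same sign under every one of 22 other settings that gave the gene a value.

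**Figure D1:**
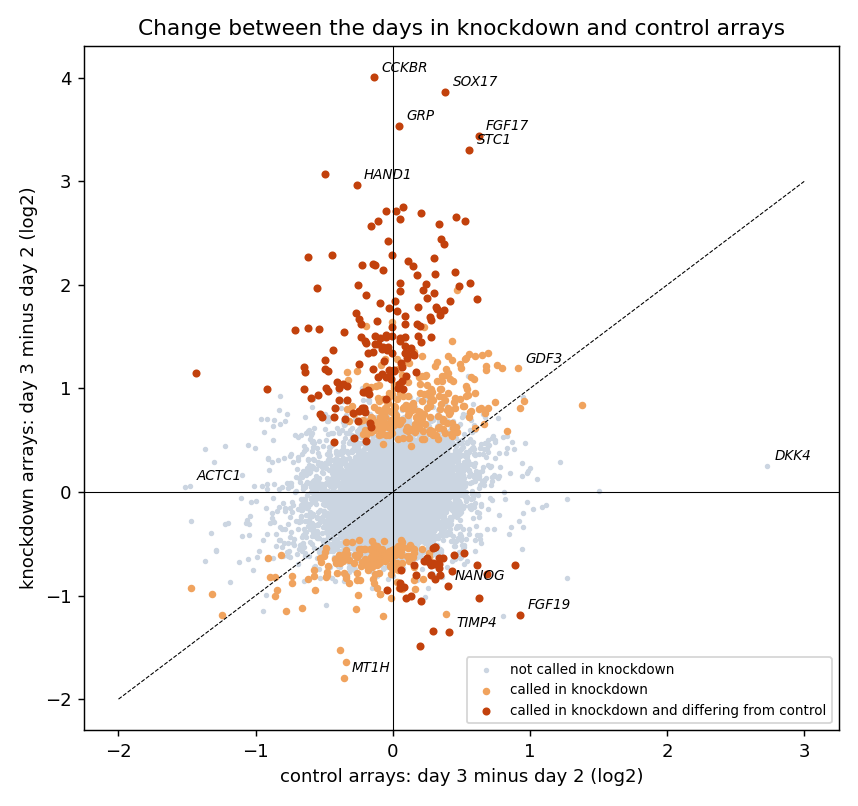
Change from day 2 to day 3 of each of 10506 genes in control arrays (horizontal axis, log2) and in knockdown arrays (vertical axis, log2). Points are genes, coloured by whether they were called in knockdown (607) and also in the difference of the day changes (198), and the dashed line marks equal change; rises of up to 4.01 in knockdown lay near 0 in control.

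The change between the days differed from that of the control cells in 243 genes (2.31%), 182 in the direction of a larger value in knockdown (1.73%) and 61 in the other (0.581%). Of the 607 genes, 198 were called in this difference as well, 160 higher and 38 lower, and the comparisons share the 6 knockdown arrays. The count of 243 was 756 with the replicate block and 154 without replicate 1 of knockdown day 3.

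The largest rise was that of a receptor gene that was at background until day 3. CCKBR, the gastrin and cholecystokinin B receptor, was at 4.73, 5.16 and 5.21 on the day 2 knockdown arrays and at 8.59, 9.32 and 9.21 on day 3. It was not detected on any control or day 2 knockdown array, so the rise was at least 8.94-fold (fitted change 4.01 ± 0.23, adjusted p = 2.99e-07). GRP, a secreted neuropeptide that takes its name from gastrin release, was likewise undetected in the other 3 groups and rose from 4.91, 4.67 and 4.94 to 8.76, 8.12 and 8.24, at least 5.64-fold (adjusted p = 5.19e-08). Both genes thus separated the day 3 knockdown arrays from the other 9 with no overlap. They passed the detection filter only through these 3 arrays and were picked as large rises, so the separation is a description. A dimmer GRP probe gave a change of 1.69 against 3.54 for the probe used.

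SOX17, a SOX-family factor required for definitive endoderm, stood at 6.82, 7.01 and 6.33 on day 2 and at 10.46, 10.79 and 10.50 on day 3 of knockdown, a rise of 3.87 ± 0.27 (adjusted p = 1.32e-06). FGF17, a fibroblast growth factor of the FGF8 subfamily, went from 7.28, 7.41 and 7.79 to 10.52, 10.95 and 11.34 (3.44 ± 0.24). STC1, the secreted glycoprotein stanniocalcin, went from 7.47, 7.60 and 7.82 to 10.81, 11.04 and 10.96 (3.30 ± 0.13, adjusted p = 1.12e-08). For all 3 genes the lowest day 3 value lay well above the highest day 2 value, and the control arrays lay below the day 2 knockdown arrays. HAND1, a basic helix-loop-helix factor of heart and extraembryonic mesoderm, rose from 6.75, 6.05 and 6.61 to 9.34, 9.26 and 9.71 (2.97 ± 0.20, adjusted p = 8.8e-07), with all 6 control arrays below detection.

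**Figure D2:**
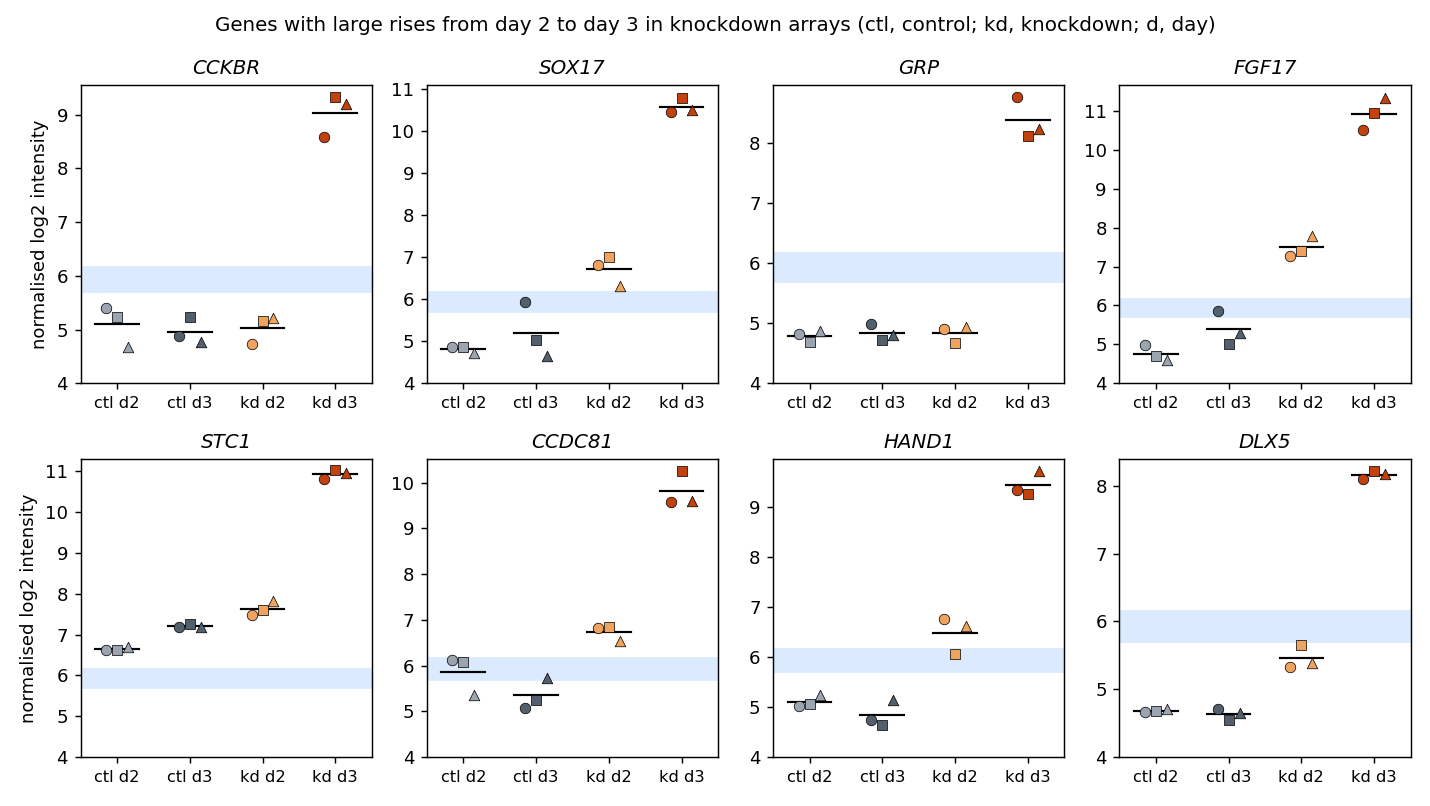
Normalised log2 intensity (vertical axis) of 8 genes with large rises on the 12 arrays by group (ctl, control; kd, knockdown; d, day). Circles, squares and triangles are replicates 1, 2 and 3, black lines are group means and the blue band spans the lowest detected level of the arrays; the 3 day 3 knockdown arrays lie above all others in each panel.

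The other genes among the 15 largest stable rises covered several classes of protein. The homeobox genes DLX5 (2.71 ± 0.13, at least 4.89-fold) and HLX (2.62 ± 0.15, at least 4.64-fold), and the iron exporter ferroportin, SLC40A1 (2.64 ± 0.14, at least 5.27-fold), were undetected on all day 2 knockdown arrays. VWF, the von Willebrand clotting factor of endothelium, rose from 5.94, 6.38 and 5.67 to 8.56, 9.19 and 8.10 (adjusted p = 1.22e-04). The remaining 5 were CCDC81, the antiviral cytidine deaminase APOBEC3G, SERHL2 (undetected at day 2, at least 3.34-fold), RHOBTB3 and HAPLN1, which links hyaluronan to proteoglycans, with fitted changes of 2.65 to 3.08.

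Detection itself also marked day 3 of knockdown. There were 55 tested genes detected on all 3 day 3 knockdown arrays and on no other array, of which 51 rose by the test; the same pattern was met by 2 genes for knockdown day 2, 7 for control day 3 and 0 for control day 2. Since a gene needed detection on 3 arrays to be tested, these genes entered through the group that shows them, and the counts are a description. Besides CCKBR, GRP, SLC40A1, DLX5 and HLX they held GATA4 (at least 1.88-fold), the cardiac mesoderm regulator MESP1 (at least 1.78-fold), the atrial natriuretic peptide gene NPPA (at least 2.09-fold) and the matrix proteoglycan LUM (at least 1.06-fold). In the opposite direction, 8 genes were undetected on the day 3 knockdown arrays and detected on all other 9, against 9 for control day 3, 4 for control day 2 and 2 for knockdown day 2. In RNA from a mixed culture, more cells of a type and more RNA per cell cannot be told apart.

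Promoters of NPPA and GRP are shown because both genes went from undetected to detected and both hold a TATA element, TATAAA, whose first base lies 29 bases before the annotated start. The promoters of HAND1 and of HLX were searched as well for these exact letters and held no match, although HLX also went from undetected to detected. HAND1 holds the similar letters TATATAAG shortly before its annotated start, which this search does not count. They are from RefSeq (GRCh38.p14), chr1:11847784-11848033 on the minus strand for NPPA and chr18:59219908-59220157 on the plus strand for GRP, with TATAAA in capitals.
NPPA: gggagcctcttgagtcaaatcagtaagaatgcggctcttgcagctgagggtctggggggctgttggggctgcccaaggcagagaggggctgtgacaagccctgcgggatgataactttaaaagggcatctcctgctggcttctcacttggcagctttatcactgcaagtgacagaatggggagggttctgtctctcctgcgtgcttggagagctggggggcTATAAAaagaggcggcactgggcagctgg
GRP: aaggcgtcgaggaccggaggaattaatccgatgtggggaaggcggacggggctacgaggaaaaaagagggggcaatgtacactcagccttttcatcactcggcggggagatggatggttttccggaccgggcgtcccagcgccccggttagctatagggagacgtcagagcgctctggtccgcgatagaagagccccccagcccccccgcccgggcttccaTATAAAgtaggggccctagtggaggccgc
Searched on both strands of the 250 bases before the start, TATAAA was present in 12.9% of the promoters of genes that rose with an entry, in 5.26% of those that fell and in 5.41% of those tested, against 11.1% of all 27305 promoters. A match is a description of letters in this window.

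Endoderm genes formed the list with the largest median change. Of 34 members on the array 25 were measured, 15 rose and none fell (1 fell at an unadjusted p under 0.05 and 1 with the block), 10 did not pass, and the median change was 1.11 against -0.04 for all genes and 0.09 for the same members in control. In the difference of the day changes 11 were higher and none lower. The transcription factors SOX17, GATA4 (1.40, at most 5.64 on day 2 and at least 6.39 on day 3), OTX2 (1.11) and PRDM1 rose. So did CXCR4, the chemokine receptor used to sort endoderm, from 7.95, 7.68 and 7.65 to 9.04, 9.25 and 8.49 (1.17 ± 0.23, adjusted p = 0.00843). A dimmer OTX2 probe gave 1.02 and did not pass (adjusted p = 0.128).

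Several defining endoderm genes had smaller or uncertain changes. FOXA2, a forkhead factor, was at 8.08, 7.89 and 8.33 on day 2 and at 9.03, 9.12 and 8.90 on day 3, with no overlap, yet 0.92 ± 0.39 did not pass (adjusted p = 0.205). It passed with the 6 knockdown arrays alone (0.0177, and 0.0045 with the block as well), and the control arrays spread from 4.76 to 7.53. CER1, a secreted Nodal and BMP antagonist, gave 1.00 ± 0.28 with an adjusted p of 0.0503, just over the threshold, 0.00894 with the replicate block and 0.025 without replicate 1 of control day 3. GATA6 and HHEX were each detected on 2 of 3 day 3 knockdown arrays and on no other, too few to be tested.

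Primitive streak regulators, in contrast, did not pass the test between the days in any of 4 named cases, and EOMES, MIXL1 and GSC were already above every control array at day 2. EOMES, a T-box factor, was at 11.99, 12.04 and 11.54 on day 2 and at 12.38, 12.40 and 12.08 on day 3 of knockdown against 7.21 to 9.70 on the control arrays. The knockdown days did not overlap, and 0.43 ± 0.36 did not pass (adjusted p = 0.599) but did with the block on the 6 knockdown arrays alone (0.0378). MIXL1, a homeobox factor, was at 9.44, 10.09 and 9.36 and then at 8.94, 9.88 and 9.09, with overlapping days (-0.33 ± 0.39, adjusted p = 0.719). GSC, the goosecoid homeobox factor, went from 6.93, 7.55 and 6.71 to 7.80, 8.08 and 7.89 (0.86 ± 0.29), which did not pass (adjusted p = 0.113) but did with the replicate block (0.0453) and without replicate 1 of control day 3 (0.0234). TBXT, the T-box factor brachyury, was at 6.50, 5.95 and 6.34 and then at 5.14, 5.37 and 5.76, detected on 2 of 3 day 2 arrays and on none of day 3, at -0.84 ± 0.28 (adjusted p = 0.101). It passed with the block (0.0324) and without replicate 1 of control day 3 (0.0216).

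**Figure D3:**
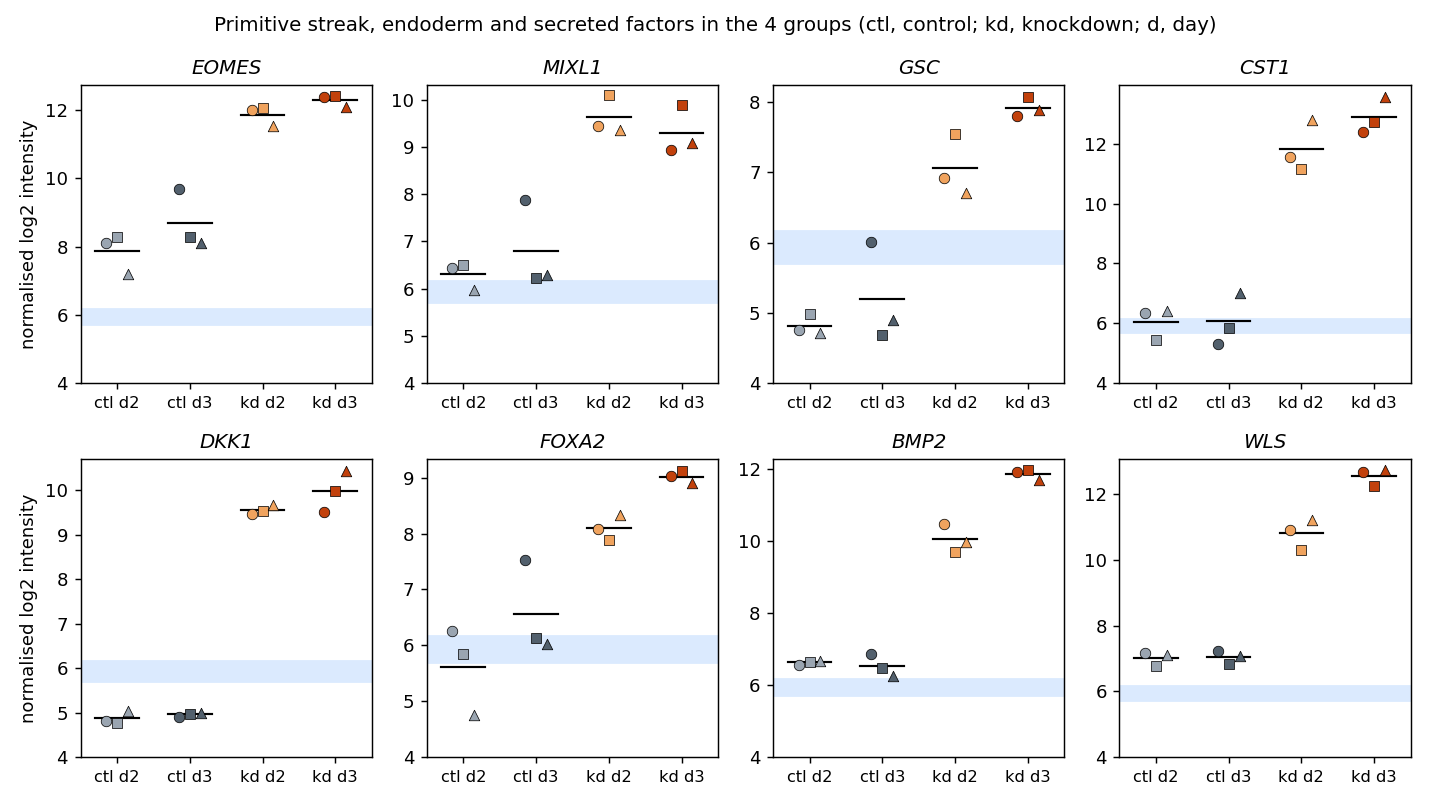
Normalised log2 intensity (vertical axis) of 8 primitive streak, endoderm and secreted factor genes on the 12 arrays by group (ctl, control; kd, knockdown; d, day), drawn with circles, squares and triangles for replicates 1, 2 and 3, black lines for group means and a blue band for the lowest detected levels. EOMES and MIXL1 differ by 0.43 and -0.33 between the knockdown days, while BMP2 and WLS lie 1.82 and 1.75 higher at day 3.

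Across the mesoderm and primitive streak list, 9 of 25 measured members rose, none fell (2 at an unadjusted p under 0.05) and the median was 0.57, against -0.01 in control. Besides FGF17, HAND1, GATA4 and MESP1, the retinoic acid hydroxylase CYP26A1 rose from 12.74, 12.97 and 12.22 to 14.43, 14.44 and 13.85 (1.60 ± 0.21), with 2.17 and 2.12 on its other probes. LHX1, ISL1, TWIST1 and MSX1 completed the 9. Genes of heart and muscle rose in 7 of 15 measured cases, at a median of 0.10 and of -0.49 in control. ALPK2, a kinase of heart, rose by 2.57 ± 0.14, and MYL4, an atrial myosin light chain, went from 7.10, 6.86 and 7.30 to 9.34, 9.05 and 9.74 (2.29 ± 0.18). The count of 7 was 4 without replicate 1 or replicate 3 of knockdown day 3. ACTC1, cardiac actin, was level in knockdown (0.06) and fell in control by 1.48 (adjusted p = 0.0258), a call lost without the detection filter (0.0566) or without any 1 of 5 control arrays (0.0702 to 0.153, 0.108 without replicate 1 of day 3), and it was 1 of 8 members higher in the difference.

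Markers of other cell types gave mixed counts. Among 18 measured trophoblast genes of 47 on the array, 5 rose (CCKBR, HAND1, SLC40A1, ENPEP and KRT19) and none fell, CDX2 was undetected on all 12 arrays, and GATA3 gave 0.61 (adjusted p = 0.308). Of these 5, HAND1 also stands in the mesoderm list. GATA3 passed with the block on the 6 knockdown arrays alone (adjusted p = 0.0148). In the amnion list 1 of 14 rose, ISL1 (0.81, adjusted p = 0.0313), which did not pass without replicate 1 of knockdown day 2 (0.129), and 4 rose with the replicate block. For neuroectoderm 3 of 19 rose (OTX2, MEIS2 and CDH2) and 1 fell, POU3F1, whose call was lost without replicate 1 of knockdown day 2 or any 1 of the 3 day 3 knockdown arrays. CDH2, N-cadherin, moved from 13.61, 13.77 and 13.53 to 14.26, 14.12 and 13.98 (0.48 ± 0.13, adjusted p = 0.0426), a call lost in 12 of 22 other settings (up to 0.158), and E-cadherin, CDH1, gave 0.41 ± 0.20 (adjusted p = 0.292). VWF was the 1 gene of 9 measured endothelium and blood genes that rose, while the list's median was -0.28 and 4 fell with the block.

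Matrix genes rose more often than they fell. In the extracellular matrix list 9 of 30 rose, HAS3 fell, the median was 0.47 (0.06 in control) and 17 rose with the replicate block. HAPLN1, HAS2, a hyaluronan synthase, and FN1, fibronectin, were among the risers, with COL4A6, a basement membrane collagen chain, at 1.18 and FBN2, fibrillin, at 1.00. The stromal list had 4 risers of 15, COL5A2 (1.59), LUM, FN1 and COL5A1 (1.06), and 7 with the block. For the mesenchymal transition list the count was 5 of 19, or 3 without replicate 1 of knockdown day 2, led by TGFB2 (1.38) and ITGA5, an integrin chain that binds fibronectin (1.01). KRT19, a keratin, was the single riser of 22 epithelial genes (0.97), with 3 under the block.

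**Figure D4:**
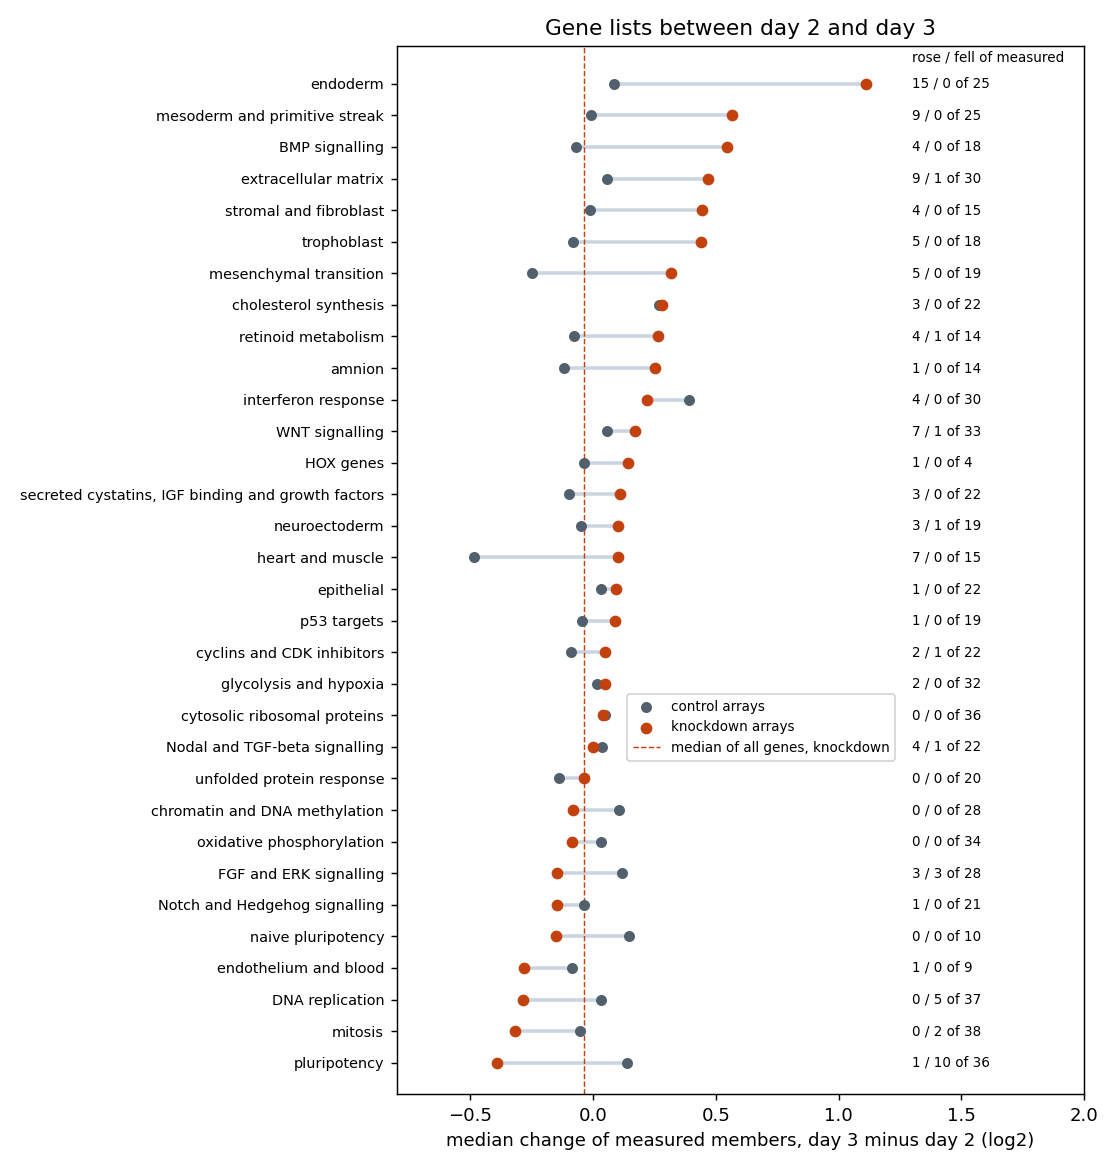
Median change from day 2 to day 3 (horizontal axis, log2) of the measured members of each of 32 gene lists in knockdown and control arrays, with the counts that rose and fell in knockdown at the right. The dashed line is the median of all genes in knockdown (-0.04); endoderm lies highest (1.11) and pluripotency lowest (-0.39).

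Ligands, carriers, receptors and inhibitors of the BMP and WNT pathways were among the risers. In the BMP list 4 of 18 rose and none fell (7 rose with the block), at a median of 0.54. The ligand BMP2 rose from 10.47, 9.69 and 9.98 to 11.92, 11.98 and 11.71 (1.82 ± 0.20, adjusted p = 6.83e-05), and the BMP-induced inhibitor SMAD6 from 9.30, 9.89 and 8.84 to 11.06, 11.39 and 10.51 (1.64 ± 0.29). DLX5 and MSX1 were the others. In the WNT list 7 of 33 rose and APCDD1 fell (not without replicate 1 of knockdown day 2 or replicate 2 of knockdown day 3), with a median of 0.17. WLS, the carrier that brings WNT proteins to the cell surface, rose from 10.90, 10.30 and 11.22 to 12.69, 12.26 and 12.73 (1.75 ± 0.22), and its 4 other probes gave 1.23 to 1.83. The receptor FZD8 rose by 1.79 and the secreted antagonist FRZB by 1.50. DKK1, another WNT antagonist, was already at 9.47, 9.54 and 9.68 on day 2 and gave 0.41 by day 3 (adjusted p = 0.256), against at most 5.05 on the control arrays.

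Nodal and TGF-beta genes had a median of 0.00, with 4 of 22 rising and 1 falling (7 rising with the block, 2 rising without replicate 1 of knockdown day 2). GDF3, a TGF-beta family ligand, rose by 1.19 ± 0.15, and also by 0.92 in control (adjusted p = 0.0258). LEFTY1, a Nodal antagonist, fell from 13.74, 13.64 and 13.14 to 12.24, 12.89 and 12.42 (-0.99 ± 0.19, adjusted p = 0.00678). Within the FGF and ERK list 3 rose and 3 fell of 28 (1 fell without replicate 1 or 3 of knockdown day 3), and 22 of 28 changes were negative (median -0.15), against 5787 of 10506 over all genes. FLRT3, a membrane protein that binds FGF receptors, rose by 2.39. The retinoid list had 4 risers, ALDH1A1 (1.87), CYP26A1, ALDH1A3 and RDH10, and 1 faller, DHRS3, of 14. The risers numbered 2 without replicate 2 or 3 of knockdown day 2 or replicate 1 or 3 of knockdown day 3. In the Notch and Hedgehog list JAG1, a Notch ligand, rose (0.96) and none of 21 fell, while 5 fell with the block.

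FGF ligands moved in both directions among the largest stable changes. While FGF17 rose, FGF18 went from 6.79, 7.82 and 7.41 to 5.38, 6.01 and 6.05 (-1.53 ± 0.23, adjusted p = 0.00128). FGF19, a ligand that can act as a hormone, went from 6.65, 7.48 and 6.76 to 5.74, 6.02 and 5.57 (-1.18 ± 0.22, adjusted p = 0.00521). In control FGF19 went the other way, from 6.42, 6.62 and 6.21 to 7.61, 7.12 and 7.31, which did not pass (adjusted p = 0.104), and the difference of the day changes was -2.11 (adjusted p = 0.002). FGF16, undetected on the day 3 knockdown arrays, was at least 1.28-fold lower there. FGF18 was detected on 3 of 3 day 2 knockdown arrays, on 2 of 3 at day 3 and on no control array.

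Pluripotency genes fell in 10 of 36 measured cases, and 32 of 36 changes were negative, at a median of -0.39 against 0.14 in control. The count was 5 without replicate 1 of knockdown day 2 or of knockdown day 3 and 6 without replicate 3 of knockdown day 3, and 3 of the 10 were stable. NANOG, the homeobox factor, was at 9.38, 9.50 and 8.81 on day 2 and at 8.20, 8.62 and 8.16 on day 3 of knockdown (-0.90 ± 0.18, adjusted p = 0.00926), with no overlap, while the control arrays held 9.85 to 10.36. The call was lost with the 6 knockdown arrays alone (0.058). VSNL1, a neuronal calcium sensor expressed in embryonic stem cells, fell from 8.77, 9.04 and 8.52 to 7.54, 8.02 and 7.75 (-1.01 ± 0.16), and CNMD, chondromodulin, by 1.05. SOX2 went from 9.88, 10.71 and 9.78 to 9.83, 10.15 and 9.23, with overlap (-0.39 ± 0.26, adjusted p = 0.473). GDF3 was the 1 member that rose.

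The NANOG promoter is shown because NANOG fell and because its promoter holds the joint OCT4 and SOX2 element. The 250 bases before the start are from RefSeq (GRCh38.p14, chr12:7789152-7789401, plus strand), with the match to this joint element, an octamer-type part followed by a SOX site, in capitals from 120 bases before the start.
NANOG: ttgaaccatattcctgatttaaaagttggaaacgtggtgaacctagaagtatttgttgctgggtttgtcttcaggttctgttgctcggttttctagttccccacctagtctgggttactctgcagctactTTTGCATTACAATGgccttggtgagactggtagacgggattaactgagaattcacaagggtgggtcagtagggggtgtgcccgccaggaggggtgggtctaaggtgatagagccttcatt
This element, searched on both strands as 14 letters with 1 free position, was found in 2 of 27305 promoters (0.00732%) and in 2 of 8609 of tested genes. The 1 match among 152 promoters of genes that fell is NANOG itself, and 0 of 319 of genes that rose had one. The letters searched equal the NANOG site at every fixed position, so these counts are only a description. The match says nothing of OCT4 binding at other genes, where the element can differ in its letters or lie elsewhere.

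**Figure D5:**
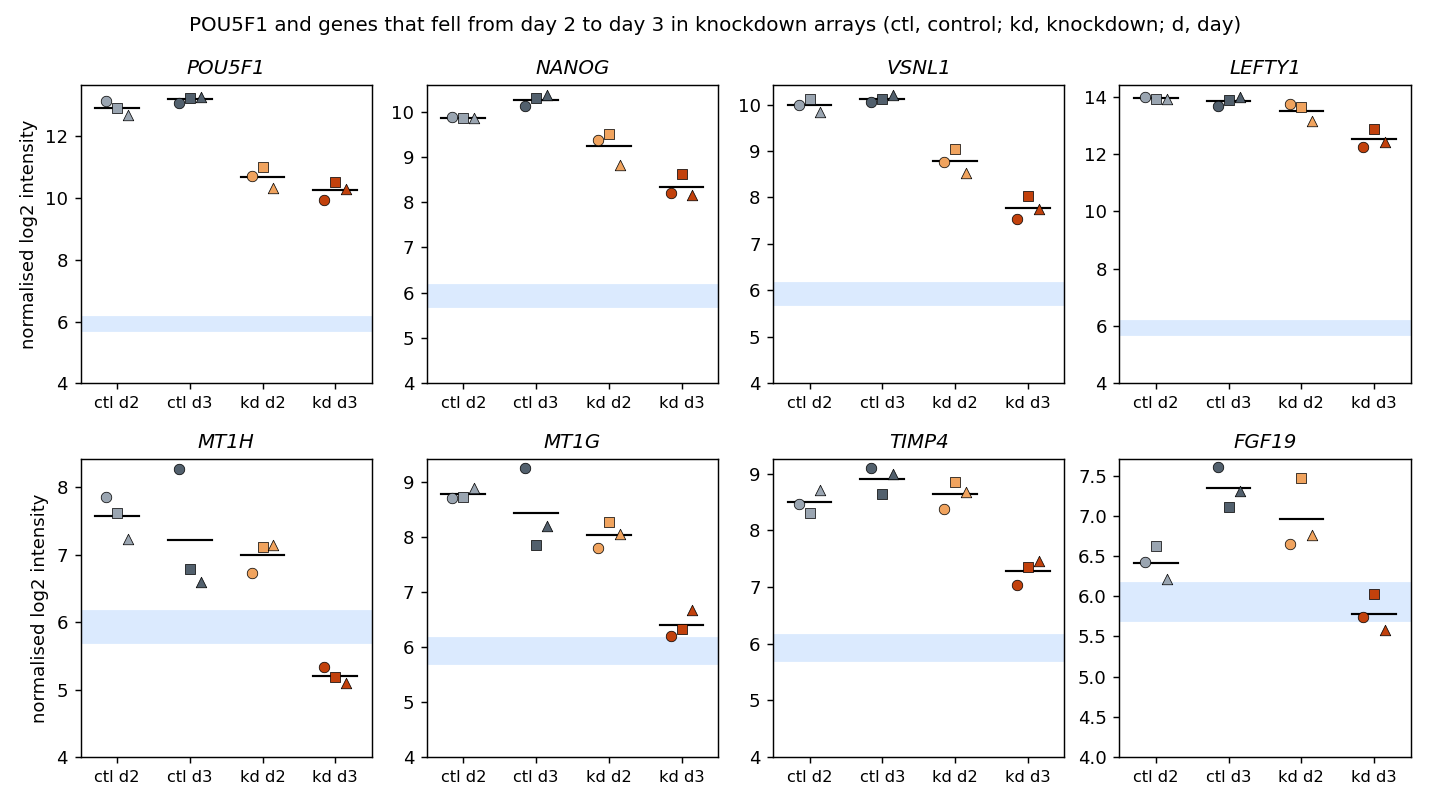
Normalised log2 intensity (vertical axis) of POU5F1 and 7 genes that fell between the knockdown days, on the 12 arrays by group (ctl, control; kd, knockdown; d, day), with circles, squares and triangles for replicates 1, 2 and 3, black lines for group means and a blue band for the lowest detected levels. MT1H and FGF19 lie near the band on day 3 of knockdown, while POU5F1 overlaps between the knockdown days.

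The 2 largest stable falls were metallothioneins, small cysteine-rich proteins that bind zinc and copper. MT1H was at 6.73, 7.12 and 7.15 on day 2 and at 5.34, 5.19 and 5.09 on day 3 of knockdown, where it was undetected, at least 2.27-fold lower (fitted change -1.79 ± 0.34, adjusted p = 0.00579). MT1G went from 7.81, 8.28 and 8.05 to 6.21, 6.34 and 6.67 (-1.64 ± 0.28, adjusted p = 0.00299). The difference from the control days did not pass for either gene (adjusted p = 0.17 and 0.126), though MT1H passed with the replicate block (0.0477) and MT1G without replicate 2 of control day 3 (0.0481), and replicate 1 of control day 3 was the highest array for both. The family was then examined as a whole, a choice made after these values were seen. Of 6 measured members MT1F also fell (-0.74, adjusted p = 0.0326), MT1X gave -0.63 (0.0606), MT1E -0.63 (0.162) and MT2A 0.89 (0.0856). The difference from the control days passed for MT1X (-1.12, adjusted p = 0.0368) and MT1F (-1.08, 0.0499), though neither held with each array left out in turn. It did not pass for MT1E (0.911) or MT2A (0.213). These genes are near-identical, and cross-hybridisation between their probes was not tested.

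The MT1H promoter is shown for its metal response elements, the sites through which zinc induces this family. It is from RefSeq (GRCh38.p14, chr16:56669564-56669813, plus strand), with matches to TGCACNC or TGCGCNC on either strand in capitals.
MT1H: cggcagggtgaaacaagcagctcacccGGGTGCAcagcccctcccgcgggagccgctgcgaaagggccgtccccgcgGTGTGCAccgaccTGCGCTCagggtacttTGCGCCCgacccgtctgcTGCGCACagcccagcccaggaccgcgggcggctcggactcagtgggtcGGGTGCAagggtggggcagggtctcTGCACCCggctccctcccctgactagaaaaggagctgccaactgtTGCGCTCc
It holds 8 such matches, which do not overlap, and 5 of 27305 promoters (0.0183%) hold 8 or more. TGCACNC alone was in 9.73% and TGCGCNC in 16.9% of all promoters. MT2A, which did not fall, holds 7 and MT1X 4.

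Other stable falls were of smaller size. TIMP4, an inhibitor of matrix metalloproteinases, went from 8.38, 8.85 and 8.67 to 7.04, 7.35 and 7.46 (-1.35 ± 0.18, adjusted p = 4.1e-04), with the control arrays at 8.31 to 9.09. CLC, a galectin, was undetected on the day 3 knockdown arrays and at least 1.8-fold lower than on day 2. STARD8 (-1.34), the glutamate receptor GRM4 (-1.02), the hyaluronan synthase HAS3 (-1.02), the secretoglobin SCGB3A2 (-1.02) and RIMKLA (-0.99) followed. CSH2, placental lactogen, was at least 1.12-fold lower, and it fell in control as well (-0.86, adjusted p = 0.0137).

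The DNA replication and mitosis lists had negative median changes, and a minority of their genes passed the test. The list of cyclins and cyclin-dependent kinase inhibitors, with counts given below, had a median of 0.05. In the DNA replication list 5 of 37 fell (PRIM1, MCM2, ORC1, MCM7 and POLE2), 33 of 37 changes were negative and the median was -0.29, against 0.03 in control. PRIM1, a primase subunit, went from 9.75, 9.74 and 9.68 to 8.68, 9.17 and 8.92 (-0.80 ± 0.15), and MCM2, a subunit of the replicative helicase, from 10.13, 9.86 and 9.98 to 8.92, 9.46 and 9.23 (-0.79 ± 0.15). The count was 14 with the replicate block, 2 without replicate 1 of knockdown day 3, and 3 without replicate 2 of knockdown day 2 or replicate 3 of knockdown day 3. All 38 mitosis genes had negative changes, at a median of -0.32, but 2 fell by the test, CDC25C (-0.53, adjusted p = 0.041) and KIF11 (-0.52, adjusted p = 0.0402), and 10 with the block. Neither of these calls was stable, and without replicate 1 of control day 3 both missed the threshold (0.0516 and 0.0511). The cyclin-dependent kinase inhibitor CDKN2B rose from 8.99, 8.27 and 9.27 to 10.47, 9.81 and 10.76 (1.50 ± 0.28).

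In the metabolic, stress and secreted factor lists the share called ran from 0 to 13.6%, beside 5.78% of all genes. None of 34 oxidative phosphorylation genes, 36 cytosolic ribosomal protein genes, 28 chromatin genes, 20 unfolded protein response genes or 10 naive pluripotency genes was called by limma. At an unadjusted p under 0.05 the counts were 1, 1, 6, 5 and 3, and with the replicate block 0, 1, 5, 5 and 2. Of 22 cholesterol synthesis genes 3 rose, at a median of 0.28 that was 0.27 in control, and without replicate 1 of knockdown day 3 none did. The interferon list had 4 risers of 30 and 9 with the block, led by EPSTI1 (2.26 ± 0.25) and IRF1 (0.82), and its median was 0.22 in knockdown and 0.39 in control. Of 19 p53 targets TP53INP1 rose (0.62, adjusted p = 0.0326), a call lost without replicate 2 of knockdown day 2 (0.103), among others. BNIP3 (0.88) was 1 of 2 risers among 32 glycolysis and hypoxia genes, and 1 riser was left without replicate 1 or 3 of knockdown day 2 or replicate 2 or 3 of knockdown day 3. In the list of cystatins, IGF binding proteins and growth factors 3 of 22 rose, STC1, CST6 and KITLG, with 7 under the block and 1 without replicate 1 of knockdown day 2 or any 1 of the 3 day 3 knockdown arrays. CST1, a secreted cystatin, was at 11.54, 11.15 and 12.79 and then at 12.37, 12.71 and 13.55 (1.06 ± 0.48, adjusted p = 0.246), and it passed with the block (0.0128). Replicate 3 was the highest CST1 array of each knockdown day. MEIS2 was the riser among 4 measured HOX list genes (0.86), and in the cyclin list 2 of 22 rose and CDC25A fell. The cyclin risers numbered 4 with the block and 1 without replicate 2 of knockdown day 2 or replicate 1 or 2 of knockdown day 3, and CDC25A missed the threshold without replicate 1 of knockdown day 2 or replicate 1 or 3 of knockdown day 3.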

How the data were processed

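RNA of 12 samples was measured on Illumina bead arrays. The deposited table gives a linear intensity and a detection p-value for each of 48803 probes, with no normalisation recorded per the file headers. A second deposited table holds the authors' log2 values, which equal log2 intensities less a constant per array and a baseline per probe. They served as an alternative, and the scanner software is not given in the sources used here. Groups and replicate numbers came from the sample titles.

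Intensities were background-corrected from the detection p-values, offset by 16, quantile-normalised and log2-transformed by the neqc function (limma 3.58.1, R 4.3.3). Probes detected (p under 0.01) on at least 3 of 12 arrays were kept, 15407 in all, and the brightest with 1 gene in the array's annotation stood for each of 10506 genes. Of 28098 probes with 1 gene, 28059 matched RefSeq (GRCh38.p14), while 20692 had none and 13 several. One limma fit with 4 group means and no block gave all contrasts (8 residual degrees of freedom), with two-sided tests and Benjamini-Hochberg adjustment over all genes. Where 1 group was undetected, the fold is a lower bound, set against the higher of the probe's value and the array's lowest detected value. The statistics were tested on simulated data.

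Same-numbered arrays of the knockdown days deviated together from their group means (correlations 0.22, 0.598 and 0.724), and those of the control days too (0.241, 0.214 and 0.666). The numbers may therefore pair the arrays, although no label says what they mark. Number 1 of knockdown correlated more with another number (0.283), and so did numbers 1 and 2 of control (0.317 for each). The reported fit leaves the pairing out, and a fit with the replicate block is given for some of the results whose call it changes. Among list counts not given above, the block gave 15 fallers for pluripotency. It gave 12 risers and 2 fallers for mesoderm and primitive streak, and 7 and 1 for trophoblast. For WNT signalling it gave 9 and 3, and for retinoid metabolism 6 and 2. Further counts changed as well.

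The members and the 32 gene lists were chosen with earlier results of these data known, so they are no independent support. Genes named are the 15 largest stable rises and falls, 24 core genes, up to 4 stable calls per list and direction, 8 per direction in the difference of the day changes and 3 per direction in control. Other names complete a count. A stable call kept its sign and threshold in every one of 22 other settings that gave the gene a value (a gene detected on fewer than 6 arrays has none under the filter of 6), with days not overlapping. Promoters are the 250 bases before RefSeq's first start, found for 8609 tested genes. Alternatives changed the background correction, scaling, filter, probe choice, block, arrays fitted and replicates.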

Additional observations from a re-analysis of the deposited data

Results flagged for a closer look

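For 23 genes, the 8 largest stable differences in each direction and the core genes that passed, the change from day 2 to day 3 differed between knockdown and control cells by the test of the difference itself (limma, adjusted p under 0.05), which picks them out for a closer look. Of the 100 named genes 59 passed this test, a number of them not in every other setting. Values are the day change in knockdown minus that in control, on the log2 scale, with 3 arrays in each of 4 groups. CCKBR was at 4.14, CCDC81 at 3.57, GRP at 3.49, SOX17 at 3.48, HAND1 at 3.23, the chemokine gene CCL2 at 2.88, FGF17 at 2.82 and DLX5 at 2.76, and all were called with each array left out in turn. The core genes BMP2 (1.91), WLS (1.72), CXCR4 (1.64), GATA4 (1.47), OTX2 (1.16) and CDH2 (0.91) were higher as well. CXCR4 missed the threshold without replicate 1 or 2 of control day 2 (adjusted p = 0.0548 and 0.0541) or replicate 1 of knockdown day 3 (0.0524), and CDH2 without replicate 1 of knockdown day 3 (0.0544).

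The difference was negative for FGF19 (-2.11), DPPA5 (-2.11), TIMP4 (-1.76), CLC (-1.68), GRM4 (-1.65), the tryptophan-degrading enzyme IDO1 (-1.60), OR52A1 (-1.49), FAM124B (-1.32) and NANOG (-1.31). In DPPA5, a gene of pluripotent cells, control went from 6.09, 6.33 and 5.45 to 7.54, 7.34 and 6.80 while knockdown went from 5.70, 6.30 and 5.63 to 5.06, 5.27 and 4.81. Neither change passed on its own (adjusted p = 0.0606 and 0.0796), but the knockdown change fell in 3 of 3 pairs and passed with the replicate block (0.00217). OR52A1, an olfactory receptor gene, was undetected on the control day 2 arrays, reached 6.66, 6.46 and 7.09 on control day 3 and was level in knockdown (0.01). CLC missed the threshold without background correction (adjusted p = 0.0524), and NANOG without replicate 1 of knockdown day 3 (0.0515).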

How the results depend on the processing

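The 607 calls between the knockdown days were 1611 with the replicate block, 357 with the 6 knockdown arrays alone, 1530 with both, and 366 to 606 when 1 array was left out. For the difference of the day changes 243 became 756 with the block and 154 to 259 with 1 array left out. The 26 calls between the control days were 15 with detection on at least 6 arrays, 450 with the block, 305 with the block and the 6 arrays alone, 5 to 54 with 1 array left out (5, 10 and 7 without control day 2 replicates 1, 2 and 3, 10 without control day 3 replicate 2, 54 without knockdown day 2 replicate 2) and 10 without the replicate 3 arrays, an alternative chosen after seeing the data. Each count was thus higher with the replicate block. With fewer arrays or genes the counts were lower in some settings and higher in others, and the causes were not tested. Other alternatives stayed within 1.5 times of each count. Over the named genes, 2800 of 2940 results under the alternatives kept sign and side of the threshold, 111 lost the call, 29 gained it and 0 reversed. This tally takes the knockdown change of all named genes, but the difference of the day changes only for the core genes and the largest stable differences. Outside it, difference calls were lost in many settings, as for CDKN2B (adjusted p up to 0.123) and KRT19 (up to 0.12). Others were gained, as for SMAD6 (0.0011 with the block). The number of arrays and signal near background limit genes undetected in a group, whose folds are bounds.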

Other observations

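In the control arrays the largest rise was DKK4, a secreted WNT antagonist, which was undetected on day 2 (4.62, 4.75 and 4.42) and at 8.70, 6.91 and 6.38 on day 3, with replicate 1 the highest. On the knockdown arrays it was at 9.98, 10.21 and 9.89 on day 2 and at 10.25, 10.40 and 10.20 on day 3, all 6 above every control array (0.25, adjusted p = 0.803). SULF1, a heparan sulfate sulfatase, rose by 1.38 in control and was undetected on all 6 knockdown arrays. It was nevertheless called higher at day 3 of knockdown, a call between background values that was lost without background correction (adjusted p = 0.119). NPTX1, a neuronal pentraxin, fell by 1.47 in control, and also in knockdown (adjusted p = 0.0202), where it was undetected on all day 3 arrays. The control calls missed the threshold with 1 control array left out for DKK4 (adjusted p up to 0.0801), SULF1 (up to 0.0867) and NPTX1 (up to 0.0761). DLK2 fell by 1.47 in control and gave -0.28 in knockdown (adjusted p = 0.42).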
